A study of Mus musculus with 2 samples.

Results

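The genes described here are the 5 colony-stimulating factor and receptor genes Csf1, Il34, Csf1r, Csf3 and Csf3r. They were taken as a list and mapped by Ensembl identifier to the count tables of both libraries, where all 5 were found among 32285 gene identifiers. The study profiled the mononuclear cells of the mouse plantaris, a small calf muscle, by single-cell RNA sequencing. Male C57BL/6 mice aged 12 weeks had the plantaris of 1 side subjected to tenotomy, the cutting of a tendon, and the plantaris of the other side served as the sham control. Both muscles were collected 4 days later. The series title speaks of mechanically loaded muscle, and the labels do not name the tendon that was cut. The muscles of 5 mice were pooled per group and digested with collagenase, living cells were sorted as positive for Calcein AM and negative for propidium iodide, and each pool gave 1 library. Since each group is 1 library, no value has a replicate and no test was possible, and the treatment cannot be told apart from the library.

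Csf1 (macrophage colony-stimulating factor) and Il34 (interleukin 34) are unrelated in sequence but bind the same receptor tyrosine kinase, Csf1r, on which most tissue macrophages depend for survival and proliferation. Csf3 (granulocyte colony-stimulating factor) acts through Csf3r, a cytokine receptor that signals through Janus kinases and Stat3 and drives the production and release of neutrophils. In tissues the ligands come largely from stromal and endothelial cells and the receptors sit on myeloid cells, so that the set links the cells that build a muscle to those that enter it after injury.

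On the mm10 assembly Csf1 lies on chromosome 3 at 107741048 to 107760469 (minus strand) and Il34 on chromosome 8 at 110741829 to 110805924 (minus strand). Csf3 lies on chromosome 11 at 98701263 to 98703629 (plus strand), Csf3r on chromosome 4 at 126024550 to 126044440 (plus strand), and Csf1r on chromosome 18. All 5 are annotated as protein-coding genes. The reads come from the 3′ end of transcripts and are counted as unique molecular identifiers (UMIs), so the values refer to whole genes and not to isoforms. Levels are given as counts-per-million (CPM), the UMIs of a gene relative to all UMIs of the same cells, and are compared between cells for 1 gene at a time, never between genes.

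The sham library held 47781353 UMIs in 8463 cell barcodes and the tenotomy library 94556283 in 11950, of which 7533 and 10928 cells were kept (median 4841 and 5859.5 UMIs per cell). The libraries shared 33 barcodes, 28 of them among kept cells. Cells were clustered without the 5 genes and without the genes of the ligand and receptor lists below, and clusters were called "-like" from marker lists. The sham library stood apart in 13 clusters with at most 1 tenotomy cell and median mitochondrial shares of 0.134% to 0.881%, which held 495 sham cells and of which 11 stayed unnamed. With the other two of these clusters left out, every fold stayed within its counting interval. The monocyte or macrophage-like class held 4.28% of the kept sham cells and 41.8% of the tenotomy cells, and the neutrophil-like class 58 and 652 cells. Of the class markers, 13 (sham) and 14 (tenotomy) of 14 for macrophages, 11 of 12 for neutrophils, and all of 13 for mesenchymal progenitors, 10 each for endothelial, pericyte or smooth muscle and muscle stem cells and 7 for tenocytes were found in at least 10% of the cells of their class, and none of them was at 0. All intervals are exact 95% intervals that cover counting error only and not the variation between animals, libraries or digestions.

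Csf1 UMIs came mostly from mesenchymal progenitor-like cells, the fibroblast-like cells between the muscle fibres. That class held 68.6% of the Csf1 UMIs of kept cells in the sham library (66.9 to 70.2) and 76.4% (75.4 to 77.3) in the tenotomy library. Its Csf1 level was 131 in sham (2157 UMIs) and 176 CPM in tenotomy cells (5586 UMIs), a fold of 1.34 (1.28 to 1.41). Csf1 UMIs were found in 52.2% (sham) and 70.3% (tenotomy) of these cells. With every cell thinned to 1000 UMIs the shares were 12.1% of 1932 and 17.1% of 1828 cells, against 2.22% of 45 and 0 of 232 B cell-like cells (at most 1.58%), whose median depths were 3424 and 1757.5 UMIs beside 8374 and 14376. Csf1 was the only member of the set that reached the limits of 50 CPM and 25 UMIs in this class, and it stayed below a 2-fold difference. Of the 3568 genes that reached the same limits, 16.4% were past 2-fold upward and 16% downward in tenotomy cells.

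Tenocyte-like cells, the tendon fibroblasts, had a larger difference. Their Csf1 level was 71.3 in sham (271 UMIs in 362 cells) and 246 CPM in tenotomy cells (408 UMIs in 208 cells), a fold of 3.45 (2.95 to 4.04), and 2.66 when every cell was thinned to 1000 UMIs. Thinned shares of cells with a UMI were 7.22% and 17.7%. By CPM, tenocyte-like cells thus stood below mesenchymal progenitor-like cells in Csf1 in the sham library and above them in the tenotomy library. By thinned shares the tenotomy values were alike, at 17.7% (12.7 to 23.7) and 17.1% (15.4 to 18.9). The 5 highest cells held 25.2% of the 408 tenotomy UMIs of tenocyte-like cells, against 3.17% in mesenchymal cells. Within the mesenchymal class, the tenotomy clusters led by Smoc2 and Pi16 were at 255 and 283 CPM. Markers of the mesenchymal class also differed in tenocyte-like cells, from a median of 15.3% of their mesenchymal level in sham to 74.7% in tenotomy cells, and their part in the Csf1 difference was not tested. Csf1 was 1 of 1 measured members and was past 2-fold, in a class where 6.15% of 3122 measured genes passed 2-fold upward and 6.34% downward.

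In muscle stem cell-like cells, the progenitors that rebuild fibres, Csf1 was at 32.4 in sham and 60.6 CPM in tenotomy cells, a fold of 1.87 (1.52 to 2.32). The median fold of all measured genes in that class was 0.24 on the log2 scale, and the Csf1 value is not corrected for this shift. Most of the tenotomy UMIs (500 of 524) came from a cluster led by differentiation genes such as Myog, with 412 tenotomy cells, at 62.1 CPM. In the cluster that both libraries filled, Csf1 was at 31.9 and 40.6 CPM (fold 1.27, 0.780 to 1.99). Csf1r (fold 7.998, 5 sham and 102 tenotomy UMIs) and Il34 (4.90, 2 and 25 UMIs) were past 2-fold here but below the limit of 50 CPM. Csf1 was the only measured member and stayed below 2-fold, beside 28.4% of 3493 measured genes that were higher and 17.2% that were lower. With the folds divided by the class median those counts were 790 higher and 771 lower in place of 993 and 602.

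**Figure D1:**
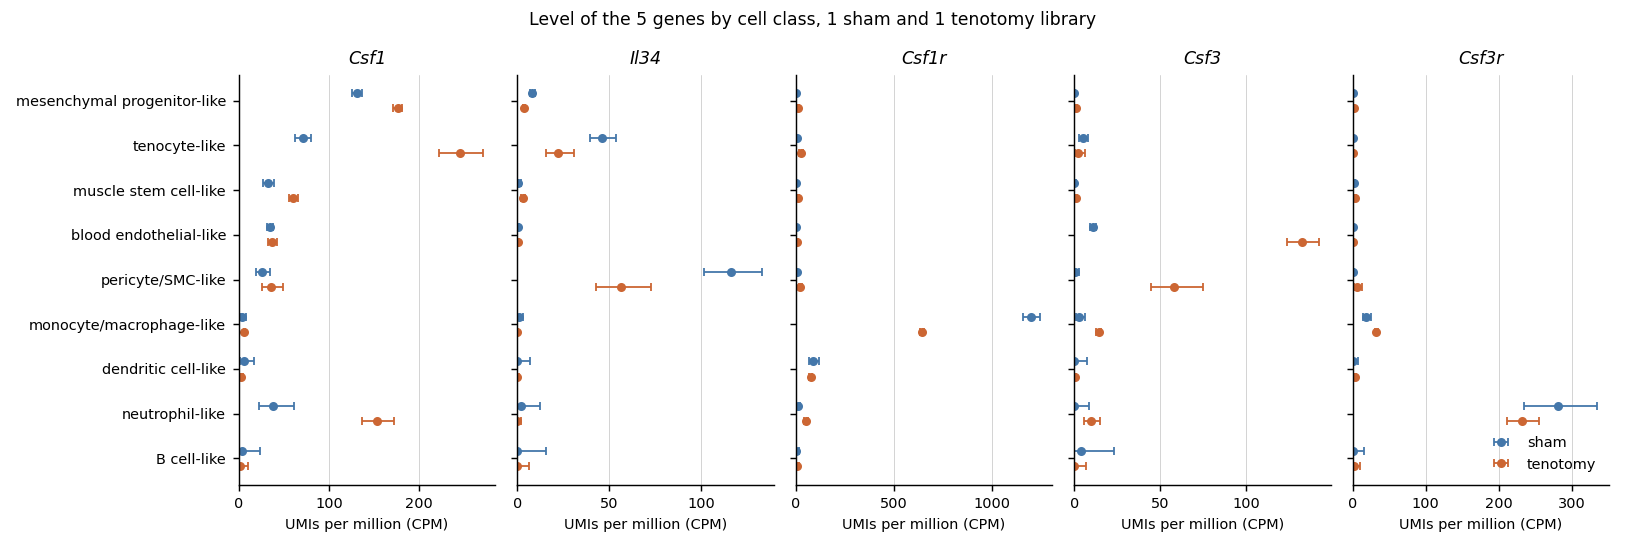
Level of each of the 5 genes (CPM, linear axis) in 9 cell classes; blue points are the sham and orange points the tenotomy library, and bars are exact 95% counting intervals. Csf1 is highest in the mesenchymal, tenocyte-like and tenotomy neutrophil-like cells, Il34 in pericyte or smooth muscle cell-like cells, Csf1r in macrophage-like cells at 1199 in sham and 643 CPM in tenotomy, Csf3 in tenotomy endothelial cells and Csf3r in neutrophil-like cells.

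The mesenchymal class was made up of different clusters in the libraries. A cluster led by Postn, Cthrc1 and Tnc, genes of matrix-making activated fibroblasts, held 4 sham and 1501 tenotomy cells, the latter with Csf1 at 172 CPM. In the 3 clusters filled by both libraries, Csf1 was at 110.0 and 255 CPM in the cluster led by Smoc2 (fold 2.32, 1.67 to 3.16), at 178 and 283 CPM in the cluster led by Pi16 (1.59, 1.41 to 1.80) and at 103 and 129 CPM in the cluster led by Sfrp5 and Gdf10 (1.25, 0.975 to 1.57). Csf1 was thus higher in tenotomy cells within the first and the second, and within counting error in the third. Among tenotomy cells with at least 2 UMIs of 12 cell cycle genes, Csf1 was at 160 CPM, and among the others at 209 CPM, while the sham values were 194 and 129 CPM.

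Csf1 was also found in neutrophils. Neutrophil-like cells had 17 Csf1 UMIs in the sham library (38.3 CPM) and 287 in the tenotomy library (154 CPM), a fold of 4.02 (2.467 to 6.999). In the tenotomy library 284 of the 287 came from the cluster led by Acod1, Retnlg and Il1r2, genes of mature neutrophils, at 102 in sham (14 UMIs in 6 of 34 cells) and 563 CPM in tenotomy cells (284 UMIs in 119 of 318 cells). The cluster led by Ngp, Camp and Ltf, granule genes of immature neutrophils, stood at 9.76 and 2.20 CPM with 3 UMIs in each library. In the tenotomy mature cluster, the 13 markers of mesenchymal progenitors were at a median of 1.96% of their mesenchymal level (1.20% to 28.2%, highest for Pi16), while Csf1 was above its mesenchymal level. Sham neutrophil-like cells were deeper than tenotomy ones, with median depths of 4792.5 and 1769.5 UMIs. When each library was clustered on its own, 190 of the 318 tenotomy cells of the mature cluster fell into an unnamed cluster and 99 kept the name, against 34 of 34 sham cells, and the fold for the class was then 0.207. Csf1 and Csf3r were the 2 measured members in this class, and Csf1 was past 2-fold. Of 2530 measured genes, 7.71% passed 2-fold upward and 1.86% downward, and with the class median of 0.19 on the log2 scale taken off, the counts of 195 and 47 genes became 128 and 76.

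Blood endothelial cells carried Csf1 at 34.5 in sham and 37.3 CPM in tenotomy cells, a fold of 1.08 (0.914 to 1.27), but held 13.4% of the sham and 3.02% of the tenotomy Csf1 UMIs. The cells themselves numbered 3283 and 1503. In the finer cluster led by Selp, Plvap and Sele, which is described with Csf3, Csf1 was lower in tenotomy cells, at 84.3 and 29.7 CPM (fold 0.352, 0.188 to 0.656). Pericyte or smooth muscle cell-like cells had 25.8 and 35.98 CPM (1.39, 0.883 to 2.19). Macrophage-like cells, which carry the receptor, had only 10 and 189 Csf1 UMIs, or 4.24 and 6.40 CPM (1.51, 0.804 to 3.20). Over all kept cells Csf1 was at 71.3 in sham and 82.2 CPM in tenotomy, a fold of 1.15 (1.11 to 1.20).

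**Figure D2:**
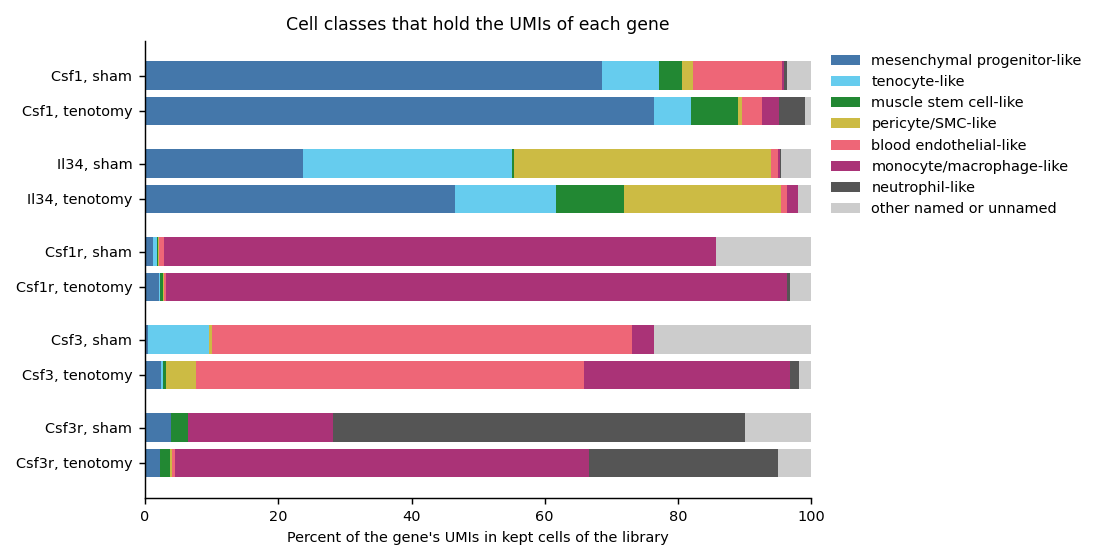
Percent of each gene's UMIs in kept cells that each class holds, by library; each bar is 1 gene in 1 library and sums to 100. The Csf1 bars are mostly mesenchymal (68.6% and 76.4%). The largest Il34 part is pericyte or smooth muscle cell-like in sham and mesenchymal in tenotomy, and the largest Csf3r part neutrophil-like in sham (61.9%) and macrophage-like in tenotomy (62.3%). The bars are shares and depend on class size and depth. Mesenchymal Il34 UMIs numbered 133 in sham and 114 in tenotomy, and neutrophil-like Csf3r UMIs 125 and 434.

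Il34 had another distribution. Its highest level was in pericyte or smooth muscle cell-like cells, the mural cells of vessels, at 116 in sham (216 UMIs in 294 cells) and 56.4 CPM in tenotomy cells (58 UMIs in 191 cells), a fold of 0.486 (0.357 to 0.652). On the marker scores used for naming, this class stood at 0.967 for its own and 0.62 for endothelial markers, over both libraries. The part of endothelial RNA in the Il34 fold was not tested. Il34 UMIs were found in 46.6% and 24.6% of those cells, and in 15.1% and 7.98% after thinning to 1000 UMIs, with 0.315% and 0 (at most 0.0832%) of the thinned macrophage-like cells as the background. In tenocyte-like cells Il34 was at 46.3 and 22.3 CPM (fold 0.482, 0.329 to 0.691). The shares of tenocyte-like cells with an Il34 UMI were 3.89% and 3.45% thinned to 1000 UMIs and 6.44% of 357 and 3.63% of 193 cells thinned to 2000 UMIs. Tenocyte-like cells carried Il34 at 39.8% of the pericyte or smooth muscle cell-like level in sham and 39.6% in tenotomy, while the 10 markers of that class were at medians of 0.169% and 0.437% there. Mylk was the highest of those markers, at 44.1% in sham.

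Mesenchymal progenitor-like cells had Il34 at 8.09 in sham and 3.60 CPM in tenotomy, a fold of 0.444 (0.343 to 0.575). Within the clusters that both libraries filled the value did not hold: Il34 was at 9.13 and 17.8 CPM in the cluster led by Smoc2 (1.95, 0.392 to 5.96), 5.90 and 4.58 CPM in the cluster led by Pi16 (0.778, 0.265 to 1.89) and 8.37 and 12.0 CPM in the cluster led by Sfrp5 and Gdf10 (1.43, 0.572 to 3.15). Their tenotomy cells held only 3, 6 and 8 UMIs, and the intervals of the first and the second include the fold of the class while that of the third does not. The tenotomy cells of the Postn-led cluster were at 3.28 CPM. Stem cell-like cells had 2 sham and 25 tenotomy UMIs of Il34, or 0.590 and 2.89 CPM (fold 4.90, 1.22 to 42.7).

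Over all kept cells Il34 was at 12.7 in sham and 2.75 CPM in tenotomy, a fold of 0.217 (0.186 to 0.252), the lowest of the 5 genes. Pericyte or smooth muscle cell-like cells held 38.5% of the sham UMIs and 23.7% of the tenotomy UMIs, tenocyte-like cells 31.4% and 15.1%, and mesenchymal cells 23.7% and 46.5%. In the 3 classes that held most of the Il34 UMIs the level was lower in the tenotomy library, and their share of the cells was lower too, so the fold over all cells mixes both. Schwann or other glial cell-like cells had Il34 at 19.96 in sham (7 UMIs) and 20.9 CPM in tenotomy (3 UMIs), too few to compare. In pericyte or smooth muscle cell-like cells, 2 of 5 members were measured: Il34 was past 2-fold in the lower and Csf3 in the higher direction, beside 5.95% of 3611 measured genes that were lower and 5.37% that were higher. Il34 was close to the limit, at -1.04 on the log2 scale. The Csf3 fold rests on 1 sham UMI and on 60 tenotomy UMIs, of which the 5 highest cells held 85%.

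The receptor Csf1r marked the macrophage-like class, which held 82.8% of its sham UMIs and 93.2% of its tenotomy UMIs. Its level there was 1199 in sham (2829 UMIs in 322 cells) and 643 CPM in tenotomy cells (18979 UMIs in 4564 cells), a fold of 0.536 (0.515 to 0.558). Csf1r UMIs were found in 95.3% of the sham and 88.3% of the tenotomy macrophage-like cells, and after thinning in 64.5% and 45.8%, against 0.220% and 1.39% of the thinned endothelial cells. Median depths were 6611.5 and 6040 UMIs in macrophage-like and 3445 and 2955 UMIs in endothelial cells. Over all kept cells the order was the opposite, 77.4 in sham and 229 CPM in tenotomy (fold 2.95, 2.85 to 3.06), as macrophage-like cells were more frequent in the tenotomy library. Csf1r was the only member measured in this class and stayed short of 2-fold, beside 6.5% of 3201 measured genes that passed it upward and 7.12% downward. Divided by the median fold of those genes (0.11 on the log2 scale), the Csf1r fold was 0.495.

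The level of Csf1r differed more between macrophage clusters than between the libraries. The cluster led by Cd163, Cd209f and Ccl24, with the Lyve1 and Folr2 genes of resident macrophages, had the highest level, at 1552 in sham (201 cells) and 1152 CPM in tenotomy (23 cells), a fold of 0.743 (0.610 to 0.896). These were 201 of 322 macrophage-like cells in sham against 23 of 4564 after tenotomy. The genes of resident macrophages were not confined to it, so these numbers are not a count of resident-type cells. A cluster led by Ccl8, with 16 sham and 1211 tenotomy cells, also had Folr2 and Lyve1 among its leading genes. The cluster led by Lyz1, Cd74 and Clec4e, with genes of antigen presentation, was at 474 in sham (41 cells) and 592 CPM in tenotomy (1780 cells), so that within it Csf1r was higher in the tenotomy library (fold 1.25, 1.10 to 1.43). The clusters made mostly of tenotomy cells were at 789 CPM for the cluster led by Ccl8 and Folr2, 604 CPM for the cluster led by Arg1, Gpnmb and Spp1, and 342 CPM for the cluster led by Ly6c2, a marker of inflammatory monocytes. A low-mitochondrial sham cluster of 47 cells, with Folr2 and Timd4 among its leading genes, was at 961 CPM. Tenotomy cells with at least 2 cycle UMIs had 666 CPM and the others 634 CPM.

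**Figure D3:**
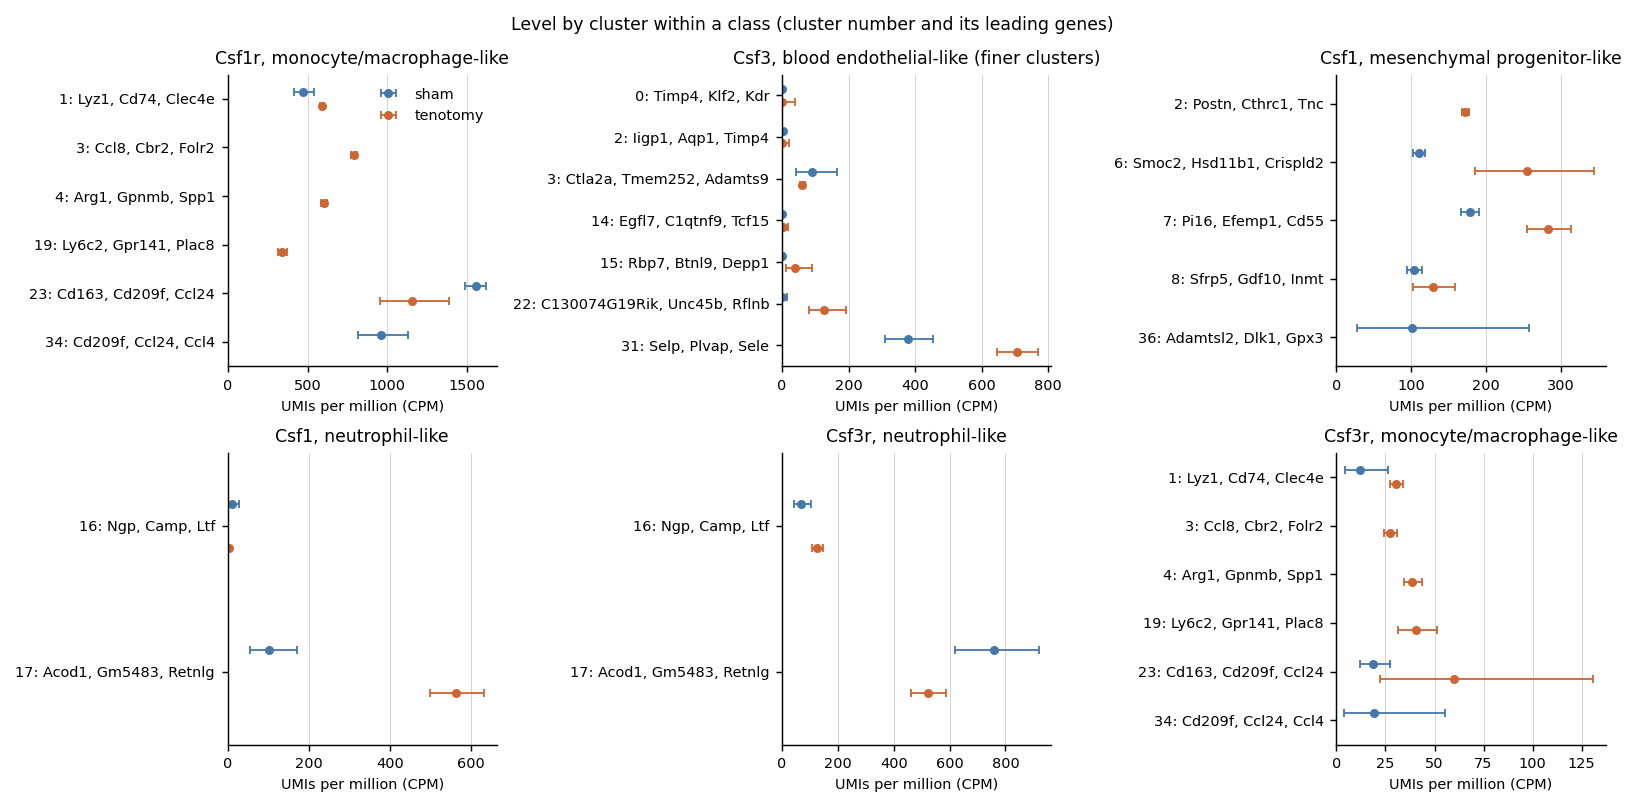
Level by cluster (CPM, linear axis) for 6 pairs of gene and class, with the cluster number and its leading genes on the left; blue is the sham and orange the tenotomy library, bars are exact 95% counting intervals, and a missing point means too few cells of that library. The Csf3 panel uses the finer clusters. Csf1r spans 342 to 1552 CPM between macrophage-like clusters, and Csf3 stands at 706 CPM in the endothelial cluster led by Selp in the tenotomy library.

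Csf1r UMIs outside macrophages were more frequent in the tenotomy library. They stood at 2.62 and 13.1 CPM in mesenchymal cells (fold 5.02, 3.66 to 7.04), 4.21 and 25.9 CPM in tenocyte-like cells, 1.48 and 11.8 CPM in stem cell-like cells and 2.13 and 8.78 CPM in endothelial cells. In the tenotomy library, Csf1r in mesenchymal cells was at 2.04% of the macrophage-like level and the 14 macrophage markers at a median of 2.10% (1.56% to 4.36%). In endothelial cells the values were 1.37% and 1.98%, in stem cell-like cells 1.83% and 2.06%, in pericyte or smooth muscle cell-like cells 3.48% and 3.94%, and in tenocyte-like cells 4.03% and 5.24%. The receptor was below the median marker in all 5. In the tenotomy library the 5 highest cells held 60.5% of the 43 Csf1r UMIs of tenocyte-like cells and 40.2% of the 102 of stem cell-like cells, but 8.17% of the 416 of mesenchymal and 15.4% of the 52 of endothelial cells. Where these UMIs came from was not tested. In dendritic cell-like cells Csf1r was at 89.0 in sham and 76.2 CPM in tenotomy, or 11.8% of the tenotomy macrophage-like level beside a marker median of 9.95%. In neutrophil-like cells it was at 8.999 and 49.8 CPM, or 7.75% beside 7.67% in the tenotomy library.

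**Figure D4:**
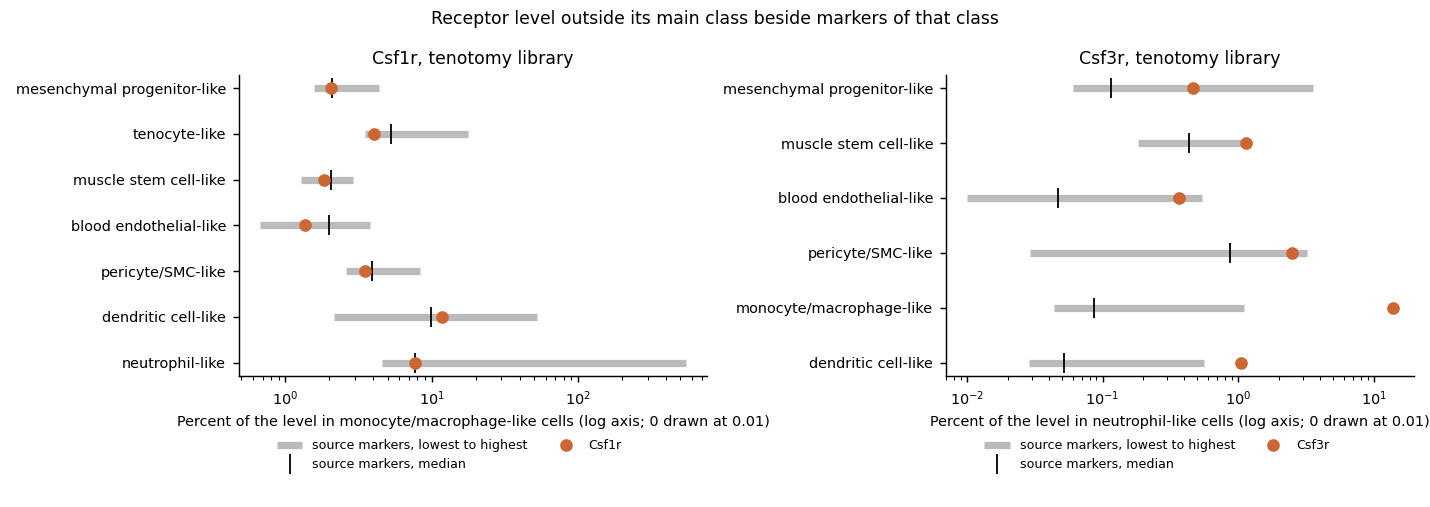
Level of Csf1r (left) and Csf3r (right) in classes other than the main one, as percent of the level in the main class (log axis, 0 drawn at 0.01), tenotomy library; orange points are the receptor, black ticks the median and grey bars the lowest to highest of the markers of the main class. Csf1r lies within the bars, while Csf3r in macrophage-like cells lies at 13.9%, above the highest neutrophil marker at 1.10%, and in dendritic cell-like cells at 1.05%, above 0.557%. The right panel has neutrophil markers only, although macrophage-like cells held most Csf3r UMIs of this library.

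Csf3 had the largest fold within a class among the 5 genes, and few cells carried it. In blood endothelial cells Csf3 was at 10.8 in sham (131 UMIs in 18 of 3283 cells) and 133 CPM in tenotomy cells (786 UMIs in 122 of 1503 cells), a fold of 12.4 (10.25 to 14.97). The highest cell held 45 of the sham and 62 of the tenotomy UMIs, and the fold without those cells was 17.3. Csf3 UMIs were found in 0.548% and 8.12% of the endothelial cells, and after thinning in 0.377% of 3181 and 5.12% of 1368, against 0 of 1932 (at most 0.191%) and 0.109% of 1828 mesenchymal cells. The class held 63.0% of the sham and 58.3% of the tenotomy Csf3 UMIs. With the libraries clustered apart the fold was 5.03. Csf3 was the only member measured in the class and was past 2-fold, beside 6.14% of 3438 measured genes that were higher and 6.63% that were lower.

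Within the endothelium, Csf3 sat in a small group of cells. The clustering at resolution 1 put 86 sham and 1106 tenotomy cells in a cluster led by Selp, Plvap and Tmem252. Csf3 there was at 272 in sham and 151 CPM in tenotomy, a fold of 0.556 (0.459 to 0.679). Of its 122 sham UMIs, found in 14 cells, 45 came from 1 cell, and the highest tenotomy cell held 62 of 761. The intervals here take each UMI as a separate count and do not cover such concentration in few cells. The cells of that cluster were not alike in the libraries: markers of venous or activated endothelium were found in a median of 44.2% of its sham and 11.2% of its tenotomy cells, and capillary markers in 58.1% and 87.2%. At resolution 2 a finer cluster led by Selp, Plvap, Sele and Ackr1, adhesion molecules and markers of venules, held 50 sham and 78 tenotomy cells with venous markers in 69.0% and 74.4% of the cells. Csf3 there was at 378 in sham (112 UMIs in 13 cells) and 706 CPM in tenotomy (499 UMIs in 38 cells), a fold of 1.87 (1.52 to 2.31). These cells were 1.53% of the sham and 5.19% of the tenotomy endothelial cells and held 85.5% and 63.5% of the endothelial Csf3 UMIs.

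A second finer cluster, led by Ctla2a, Tmem252 and Adamts9, held 1012 tenotomy cells and 24 sham cells and had 33% of the tenotomy endothelial Csf3 UMIs, at 60.0 CPM. Its sham level of 89.7 CPM came from 1 cell with 10 UMIs (fold 0.67, 0.358 to 1.41). Another 3 finer clusters, with capillary markers in medians of 81.9% to 99.2% of their cells, had Csf3 at 0 to 2.03 CPM in sham and 0 to 3.08 CPM in tenotomy cells. Capillary markers were also frequent in the tenotomy cells of the Selp-led cluster at resolution 1, which carried Csf3. Low Csf3 was thus not a trait of all cells with capillary markers. A cluster led by C130074G19Rik and Unc45b had 0 UMIs in 191 sham cells and 22 UMIs in 6 of 123 tenotomy cells (127 CPM), at least 10.6-fold higher with 3 UMIs as the sham floor. The cluster led by Rbp7, Btnl9 and Depp1 had 2 UMIs in 401 sham cells (1.23 CPM) and 5 UMIs in 46 tenotomy cells (38.9 CPM), a fold of 31.8 (5.20 to 334). The class-wide fold was thus several times the folds within the 2 finer clusters that carried most of the gene, and the tenotomy class held more cells of both, while the clusters with few Csf3 UMIs, led by C130074G19Rik and by Rbp7, had larger folds.

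Macrophage-like cells were the second source of Csf3 in the tenotomy library, with 30.9% of its UMIs. They had 417 Csf3 UMIs in 186 cells (14.1 CPM) against 7 UMIs in sham (2.97 CPM), all from 1 cell, so the fold of 4.76 (2.29 to 11.9) rests on that cell. The tenotomy value was 10.6% of the endothelial level, beside 0.401% (0.251% to 0.663%) for the 10 endothelial markers. It was 20.5 CPM in the cluster led by Arg1, Gpnmb and Spp1, 13.5 CPM in the cluster led by Lyz1, 11.7 CPM in the Ccl8 cluster and 2.45 CPM in the Ly6c2 cluster. Pericyte or smooth muscle cell-like cells had 1 sham UMI and 60 tenotomy UMIs in 12 cells, 21 of them in 1 cell (fold 109, 18.8 to 4358). Their tenotomy Csf3 was at 44.0% of the endothelial level with the endothelial markers at a median of 39.2% (35.0% to 57.3%), so it lay within the range of those markers. In tenocyte-like cells 18 of 19 sham UMIs came from 1 cell. Over all kept cells Csf3 was at 4.71 in sham and 15.2 CPM in tenotomy (fold 3.22, 2.78 to 3.74).

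**Figure D5:**
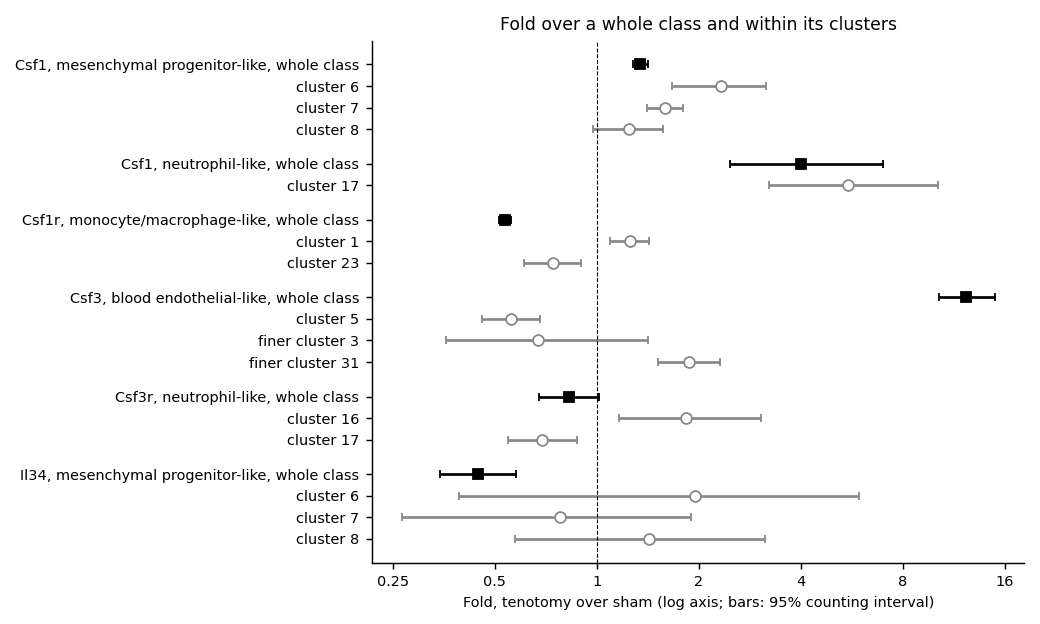
Fold of tenotomy over sham (log axis) for 6 pairs of gene and class, over the whole class (black squares) and within clusters filled by both libraries (open circles); bars are exact 95% counting intervals and the dashed line is 1. Clusters 6, 7 and 8 are led by Smoc2, Pi16 and Sfrp5, clusters 16 and 17 by Ngp and Acod1, clusters 1 and 23 by Lyz1 and Cd163, cluster 5 and finer cluster 31 by Selp, and finer cluster 3 by Ctla2a. Csf3 is at 12.4 over the class, 1.87 in finer cluster 31 and below 1 in cluster 5 and finer cluster 3. Of the 122 sham Csf3 UMIs of cluster 5, 45 came from 1 cell, and those of finer cluster 3 all came from 1 cell. Csf1r is below 1 over the class and above 1 in cluster 1.

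Csf3r, the receptor of Csf3, was highest in neutrophil-like cells, at 281 in sham (125 UMIs in 58 cells) and 233 CPM in tenotomy cells (434 UMIs in 652 cells), a fold of 0.827 (0.676 to 1.02). After thinning to 1000 UMIs the fold was 0.527 and the share of cells with a UMI was 39.7% of 58 and 25.7% of 553, beside 79.3% and 43.9% as deposited. Endothelial cells gave the background, with 0 of 3283 sham cells (at most 0.112%) and 0.266% of the tenotomy cells. The mature cluster was at 759 in sham and 521 CPM in tenotomy (0.687, 0.545 to 0.871), and the immature cluster at 68.3 and 126 CPM (1.84, 1.17 to 3.05). Csf3r was higher in the mature than in the immature cluster in both libraries, and the fold lay below 1 in the first and above 1 in the second. Tenotomy neutrophil-like cells with at least 2 cycle UMIs had 68.4 CPM and the others 322 CPM.

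In the tenotomy library most Csf3r UMIs were in macrophage-like cells. They held 62.3% of the UMIs there and 21.8% in sham, while the share of neutrophil-like cells was 28.3% and 61.9%. The macrophage-like level was 18.7 in sham (44 UMIs) and 32.3 CPM in tenotomy (954 UMIs), a fold of 1.73 (1.28 to 2.40). In tenotomy cells this was 13.9% of the neutrophil-like level, with the 12 neutrophil markers at a median of 0.0857% (0.0434% to 1.10%). In sham cells it was 6.63%, with the markers at 0.0211% (0% to 13.9%, the highest being Mmp9). Between the macrophage-like clusters made mostly of tenotomy cells, tenotomy Csf3r ranged from 27.4 CPM in the Ccl8 cluster to 40.4 CPM in the Ly6c2 cluster. In the cluster led by Lyz1 it was at 12.1 in sham and 30.4 CPM in tenotomy (2.51, 1.14 to 6.89). The cluster led by Cd163 was at 18.4 in sham (25 UMIs) and 60.1 CPM in tenotomy (3.26, 1.09 to 8.14). Its tenotomy value was the highest but rests on 6 UMIs in 23 cells. Dendritic cell-like cells had 2.43 CPM in the tenotomy library (12 UMIs), or 1.05% of the neutrophil-like level beside a neutrophil marker median of 0.0516%. Macrophage-like cells held more Csf3r UMIs than neutrophil-like cells there, and macrophage markers were also found in dendritic cell-like cells, as given with Csf1r. Where these 12 UMIs came from was not tested.

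Receptor UMIs were often found in the same macrophage-like cells. Of the 809 tenotomy cells of the class with a Csf3r UMI, 749 (92.6%) also had a Csf1r UMI, and so did 36 of 37 in sham, where Csf1r was found in 88.3% and 95.3% of the class. Of the 186 tenotomy macrophage-like cells with a Csf3 UMI, 47 (25.3%) also had a Csf3r UMI, beside 17.7% of the class. Deeper cells show more of every gene, and these shares were not corrected for depth. Over all kept cells Csf3r was at 4.58 in sham and 17.2 CPM in tenotomy, a fold of 3.76 (3.25 to 4.38).

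Of the 16 listed genes that carry the signal of Csf1r, such as kinases, adaptors and phosphatases, 12 were measured in macrophage-like cells and 0 of 12 was 2-fold higher or lower. Their median fold was 0.44 on the log2 scale, beside 0.11 for all 3201 measured genes. Tyrobp, an adaptor of activating myeloid receptors, was at 1418 in sham and 2300 CPM in tenotomy (1.62, 1.57 to 1.68). The phospholipase Plcg2 was at 33.5 and 64.9 CPM (1.94, 1.55 to 2.46). Dok2, an adaptor that restrains kinase signals, was lower, at 134 and 71.4 CPM (0.533, 0.473 to 0.602), and was past 2-fold with the class median taken off.

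Of the 12 listed genes of Csf3r signalling, 6 were measured in macrophage-like cells and 0 of 6 was past 2-fold (median fold -0.20 on the log2 scale). The transducer Stat3 was at 400 and 272 CPM (0.679, 0.635 to 0.728) and its feedback inhibitor Socs3 at 270 and 169 CPM (0.627, 0.577 to 0.682). In neutrophil-like cells 6 were measured and 2 were past 2-fold higher, 0 lower, beside 7.71% and 1.86% of all measured genes of the class. These were the kinase Jak2, at 27.0 and 56.3 CPM (2.08, 1.14 to 4.16), and the survival kinase Pim1, at 158 and 386 CPM (2.45, 1.92 to 3.18). The median of the 6 was 0.43 on the log2 scale, beside 0.19 for all measured genes of the class, and with the class median taken off 1 of the 2 stayed past 2-fold. Socs3 was at 137 and 87.3 CPM in the same cells (0.636, 0.472 to 0.869). In mesenchymal cells 7 were measured, with 0 higher and 2 lower, beside 16.4% and 16% of all measured genes. The 2 include Socs3 at 884 and 124 CPM (0.140, 0.135 to 0.145). Csf3r itself was at only 0.487 and 1.07 CPM in these cells (8 and 34 UMIs), and a link of these genes to Csf3r was not tested. Of the Csf1r signalling genes, 11 were measured in neutrophil-like cells and 0 of 11 was past 2-fold.

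Among 13 listed transcription factors of myeloid cells, 10 were measured in macrophage-like cells, with 0 higher and 3 lower (median fold -0.25 on the log2 scale), beside 6.5% and 7.12% of all measured genes of the class. The lower ones were Maf, a factor of mature macrophages, at 655 and 313 CPM (0.478), Klf4 at 620.0 and 233 CPM (0.375) and the immediate early gene Egr1 at 723 and 89.8 CPM (0.124). Egr1 was also lower in mesenchymal cells, at 2580 and 347 CPM (0.135), and in endothelial cells, at 2069 and 581 CPM (0.281), and Klf4 was lower there too, at 1071 and 323 CPM (0.302) and at 1508 and 660.0 CPM (0.438). Maf was lower in mesenchymal cells as well, at 94.7 and 45.2 CPM (0.477). Spi1, which drives Csf1r transcription, was at 350 and 456 CPM (1.30, 1.21 to 1.40). Runx1, another factor of the Csf1r locus, was at 439 and 226 CPM (0.516, 0.483 to 0.551), and Irf8 at 86.5 and 157 CPM (1.81, 1.57 to 2.09). With the class median taken off, Runx1 was past 2-fold as well, so that 4 were lower. In neutrophil-like cells 6 were measured, with 0 higher and 2 lower (Klf4 and Egr1), beside 7.71% and 1.86% of all measured genes.

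Interleukin 34 also binds Ptprz1, syndecan 1 (Sdc1) and Trem2. Sdc1 was higher in tenotomy cells of the mesenchymal class (17.2 and 67.7 CPM, fold 3.93, 3.47 to 4.47), the stem cell-like class (15.04 and 51.3 CPM, 3.41) and the pericyte or smooth muscle cell-like class (53.8 and 154 CPM, 2.86), and lower in tenocyte-like cells (52.3 and 38.0 CPM, 0.726). Trem2, a lipid-sensing receptor, was at 138 in sham and 589 CPM in tenotomy macrophage-like cells (4.26, 3.82 to 4.77). Ptprz1, a receptor phosphatase of glia, was at 522 CPM in sham Schwann or glial cell-like cells. In stem cell-like cells it was at 52.5 in sham and 4.05 CPM in tenotomy (0.0771, 0.0521 to 0.111).

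The genes whose level followed each member most closely were found over 21 pools of a class and a library, by Pearson's r of log2(CPM + 1). Il34 was closest to Tbx2 (r = 0.939), Naalad2 (0.900) and Cspg4 (0.892), all highest in pericyte or smooth muscle cell-like cells. Csf1r was closest to P2ry6 (0.932), Fcgr1 (0.926) and Rbm47 (0.922), all highest in macrophage-like cells, and Csf3r to Arg2 (0.945), Cd177 (0.938) and Trem1 (0.930), all highest in sham neutrophil-like cells. Csf3 was closest to Fam167b (0.864), Sele (0.814) and Nus1 (0.798), all highest in tenotomy endothelial cells. Csf1 was closest to Ckap4 (0.846), Creb3l1 (0.827) and Flot2 (0.813), whose highest pools were in 3 different classes. Cspg4 and Fcgr1 were among the markers that named these classes, so their highest class follows in part from the naming. The pools share libraries and cell types, and the values are descriptions.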

How the data were processed

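Single-cell RNA sequencing was done on pooled plantaris cells, 1 sham and 1 tenotomy library, with the 10x Chromium 3′ chemistry per the labels' protocols. The deposited tables hold counts, that is UMIs per gene and cell barcode without normalization, and per the submitters' processing notes Cell Ranger 4.0.0 and mm10 were used. The lowest barcode held 500 UMIs in both files, and 32158 of 32285 identifiers matched a gene symbol. Coordinates are from GENCODE vM21. Cells with at least 300 genes and at most 10% mitochondrial UMIs were kept. Scrublet in scanpy 1.11.5 removed 205 sham and 309 tenotomy doublets (2.65% and 2.75%). Both libraries were normalized together and clustered with leidenalg 0.10.2 at resolution 1. This used the union of 2000 variable genes per library, without members and listed ligands and receptors, 30 components and 15 neighbours. Each unnamed cluster of at least 100 cells was clustered once more on its own at resolution 0.5, for 50 clusters in all. Classes were rebuilt from marker lists, since no deposited annotation was used. A name required a score of 0.4, a second score of at most 0.67 of it and 3 markers in at least 10% of cells, limits set after seeing cluster scores, and differences from the study may come from these names.

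UMIs were summed per class and library and divided by the total. Intervals were exact Poisson, Clopper-Pearson and conditional binomial ones at 95%, which cover counting error only. A side at 0 UMIs was taken at 3. Thinning drew 1000 UMIs per cell and left out shallower cells. Genes counted as measured reached 50 CPM and 25 UMIs in the higher library and were called at 2-fold. Named genes were the 5 members, listed genes with at least 25 UMIs in the class described, and the 3 most like genes per member. The members and lists were chosen with earlier results of these data known. The calculations were tested on simulated data. The alternatives were other mitochondrial limits and resolutions, doublets kept, libraries clustered apart, members kept among the clustering genes, cycling cells left out, thinning, means over cells, scaling by the class median and, added after seeing the data, clusters left out or added, the top cells left out and single clusters. No sequence is shown, as the data do not bear on one.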

Additional observations from a re-analysis of the deposited data

How the results depend on the processing

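No paired analysis was possible because each group has 1 library, and leaving out a library was not possible for the same reason. Of 108 alternative values for 7 main folds (Csf1 in mesenchymal, tenocyte-like and neutrophil-like cells, Il34 in pericyte or smooth muscle cell-like cells, Csf1r in macrophage-like, Csf3 in endothelial and Csf3r in neutrophil-like cells), 83 lay inside the counting interval of the reported fold, 22 outside it on the same side of 1, and 3 on the other side. This count takes 1 cluster per class and resolution, the one with most UMIs of the gene, so other clusters given above, such as the immature neutrophil cluster for Csf3r (1.84) and finer cluster 3 for Csf3 (0.6695), are not in it. The Il34 fold stayed within its interval in all of them. The cause of the moves was not tested. Finer clusters are those of the clustering at resolution 2.

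The mesenchymal Csf1 fold of 1.34 was 1.63 without cycling cells, 1.60 thinned, 1.55 as a mean over cells, 1.26 divided by the class median, 1.59 within cluster 7 and 1.22 within finer cluster 9. Csf1 in tenocyte-like cells was 2.66 thinned, and in neutrophil-like cells 0.207 with libraries clustered apart. The Csf1r fold of 0.536 was 0.511 at resolution 2, 0.464 with libraries apart, 0.582 with unnamed clusters added, 0.485 thinned, 0.493 as a mean over cells, 0.495 divided by the class median, 1.25 within cluster 1 and 0.736 within finer cluster 28. The Csf3 fold of 12.4 was 15.6 at a mitochondrial limit of 5%, 5.03 with libraries apart, 9.51 without cycling cells, 17.3 without the top cells, 0.556 within cluster 5 and 1.87 within finer cluster 31. The Csf3r fold of 0.827 was 0.651 with libraries apart, 0.527 thinned and 0.658 within finer cluster 21. Of 268 alternatives for 19 other folds, 238 lay inside the interval and 6 on the other side of 1: mesenchymal Il34 within cluster 6 (1.95) and finer cluster 8 (2.25), mesenchymal Csf3 at resolution 2 (0.407) and with unnamed clusters added (0.413), macrophage-like Csf3 within cluster 1 (0.954) and mesenchymal Csf3r within cluster 7 (0.6695). Shares of cells moved in 22 of 28 cases, since they scale with depth, and shares of a gene's UMIs in 43 of 190. Depth limits every value that rests on under 25 UMIs.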

Other observations

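Other growth factors of blood cells were read from the same cells. Kitl, the ligand of Kit, was at 896 in sham and 793 CPM in tenotomy endothelial cells (fold 0.885, 0.855 to 0.916) and at 601 and 478 CPM in pericyte or smooth muscle cell-like cells. In macrophage-like cells Kitl was at 136 and 10.6 CPM (0.0782, 0.0667 to 0.0916), and its sham value was 15.1% of the endothelial level beside a median of 1.43% (at most 1.94%) for endothelial markers. Tslp, an alarm cytokine of stromal cells, was at 36.02 and 3.96 CPM in macrophage-like cells (0.110, 0.0825 to 0.147) and at 39.8 and 29.7 CPM in mesenchymal cells. Flt3l, the growth factor of dendritic cells, was at 18.2 and 4.64 CPM in mesenchymal cells (0.255, 0.208 to 0.312), and Thpo, the platelet growth factor, had 39 sham and 8 tenotomy UMIs there. Csf2 (granulocyte-macrophage colony-stimulating factor) had 0 sham UMIs and 53 tenotomy UMIs in 17 mesenchymal cells, at least 9.16-fold higher with 3 UMIs as the sham floor. In endothelial cells it had 43 sham UMIs, 39 of them in 1 cell, and 0 tenotomy UMIs.

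Csf2rb, the beta chain shared by the Csf2, interleukin 3 and interleukin 5 receptors, was higher in tenotomy macrophage-like cells, at 108 and 330 CPM (3.05, 2.69 to 3.47). Its close copy Csf2rb2, whose counts are uncertain where reads fit both, was at 18.2 and 57.0 CPM (3.13, 2.31 to 4.34), while the alpha chain Csf2ra was at 165 and 125 CPM (0.756, 0.681 to 0.841). In the tenotomy dendritic cell-like cells Csf2rb was at 777 CPM, Csf2ra at 124 CPM and Flt3 at 93.2 CPM. Endothelial cells had Csf2rb at 5.83 and 52.5 CPM (9.01, 6.95 to 11.8), and the tenotomy value was 15.9% of the macrophage-like level, beside macrophage markers of at most 3.78%.

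Some unnamed cells carried the members. An unnamed tenotomy cluster of 21 cells led by Elane, Prtn3 and Mpo had Csf3r at 87.7 CPM. An unnamed sham cluster of 99 cells had 39 Csf3 UMIs in 3 cells, and another of 22 cells had Csf1r at 818 CPM. Barcodes that failed the filters numbered 930 in sham and 1022 in tenotomy, and held 181 and 1335 Csf1r UMIs and 227 and 388 Csf1 UMIs.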
